A study of Mus musculus with 20 samples.

Results

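De novo lipogenesis, the making of fatty acids from acetyl-CoA, was followed through 9 genes in differentiated 3T3-L1 cells, a mouse preadipocyte line that turns into fat cells in culture. The genes were chosen by symbol, with earlier results of these data known: Acly, Acss2, Acaca, Acacb, Fasn, Thrsp, Mid1ip1, Srebf1 and Mlxipl. All 9 were found among the 48440 genes of the expression table, and all 9 passed the filter on low values, as did 15981 genes in all. RNA sequencing covered 20 libraries in 8 groups. Cells carrying a construct labelled as constituent overexpression of FOXK1 (3 libraries) stood against an empty vector control (3), and cells with Foxk1 shRNA (3) against a scrambled shRNA control (3). The same design with FOXK2 and Foxk2 shRNA had 2 libraries in each of its 4 groups. Every group is of 1 line, labelled as of Swiss mouse origin, and every group was differentiated with insulin (5 µg/ml), troglitazone (10 µM), dexamethasone (1 µM) and IBMX (isobutyl methylxanthine, 0.5 mM), then kept on insulin alone from day 4 and in growth medium from day 6. Constructs were expressed in whole cultures, and the promoter that drives them is not given in the sources used here. Foxk1 and Foxk2 are related forkhead transcription factors, which the study's own publication examined for their role in glucose use.

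In this pathway citrate leaves the mitochondrion and is split by ATP citrate lyase (Acly) into acetyl-CoA, or acetate is activated to acetyl-CoA by acetyl-CoA synthetase (Acss2). Acetyl-CoA carboxylases (Acaca in the cytosol, Acacb at the outer mitochondrial membrane) then make malonyl-CoA, and fatty acid synthase (Fasn) builds palmitate from it with NADPH. Thrsp and Mid1ip1 encode small related proteins that promote lipogenesis, Mid1ip1 by helping acetyl-CoA carboxylase to polymerise. SREBP-1 (Srebf1) and ChREBP (Mlxipl) are the transcription factors that drive these genes in response to insulin and to glucose, and mature fat cells express the pathway at a high level.

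Levels are RPKM, reads scaled to exon length and library size. The length is that of all annotated exons of a gene, merged. It was 17074 bases for Acaca, 10163 for Acss2 and 9632 for Acacb, whose longest transcripts have 9513, 3609 and 8788 bases. Levels of different genes can therefore be compared only roughly. A fold change is the difference of log2(RPKM + 0.5) between a group and its own control, with its standard error. Fold changes were tested in limma over all 15981 genes, and a gene rose or fell where its Benjamini-Hochberg adjusted p was under 0.05. The Foxk1 libraries held 16739763 to 20772823 assigned reads and the Foxk2 libraries 31378224 to 36157008. The first principal component, with 79.5% of the variance, parted the 12 Foxk1 libraries (-74.6 to -62.0) from the 8 Foxk2 libraries (98.6 to 102), controls included, so depth, replicate number and set of libraries cannot be told apart from the factor in any statement across the sets. Nothing in the labels says whether replicates came from separate cultures. Foxk1 mRNA fell in Foxk1 knockdown (-1.23 ± 0.055) and did not rise under its overexpression label, where it fell too (-0.28 ± 0.055). For that reason the group is called labelled Foxk1 overexpression throughout. Foxk2 mRNA rose in Foxk2 overexpression (0.56 ± 0.049) and fell in Foxk2 knockdown (-1.83 ± 0.049). Each factor also changed in the groups of the other. Foxk2 mRNA rose in labelled Foxk1 overexpression, from 11.3 to 13.9 RPKM (0.29 ± 0.04), and fell in Foxk1 knockdown (-0.19 ± 0.04), while Foxk1 mRNA fell in Foxk2 overexpression (-0.66 ± 0.067) and rose in Foxk2 knockdown (0.30 ± 0.067).

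The whole pathway was lower in both knockdowns. All 9 genes fell in Foxk1 knockdown, with a median log2 fold change of -0.69 and a range from -1.02 to -0.47, against a median of 0.017 over all genes tested. All 9 fell in Foxk2 knockdown as well, with a median of -0.60 and a range from -1.03 to -0.32, against 0 over all genes. Of all genes tested, 35.9% passed the test in Foxk1 knockdown, 20.4% higher and 15.5% lower, and in Foxk2 knockdown 33.7% passed, 18% higher and 15.7% lower. In both knockdowns the libraries of the knockdown and of its control did not overlap for any of the 9 genes, which held for 44.2% of all genes in Foxk1 knockdown and 67.2% in Foxk2 knockdown, where 2 libraries face 2. The share of calls that were rises moved with the scaling, from 56.9% to 46.8% with median-ratio scaling and 43.5% with the trend on length and GC content removed in Foxk1 knockdown, and from 53.5% to 40.7% with that trend removed in Foxk2 knockdown.

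In the overexpression groups most of the pathway was higher. In Foxk2 overexpression 7 genes rose, Srebf1 fell and Acly did not pass the test, with a median of 0.46 and a range from -0.24 to 1.15. Over all genes tested 45.0% passed, 23.0% higher and 22.0% lower, with a median of 0.002. Labelled Foxk1 overexpression had 6 genes higher, Srebf1 lower, and Fasn and Thrsp not passing, with a median of 0.23 and a range from -0.16 to 0.43. There 47.8% of all genes passed, 24.1% higher and 23.8% lower, with a median of 0. Libraries of treatment and control did not overlap for 8 of the 9 genes in Foxk2 overexpression, against 70.3% of all genes, and for 6 of 9 in labelled Foxk1 overexpression, against 52.3% of all genes. The 7 calls of labelled Foxk1 overexpression became 4 without control replicate 1 or without overexpression replicate 3. They also became 4 with no filter on low values and in the 2 smaller models.

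**Figure D1:**
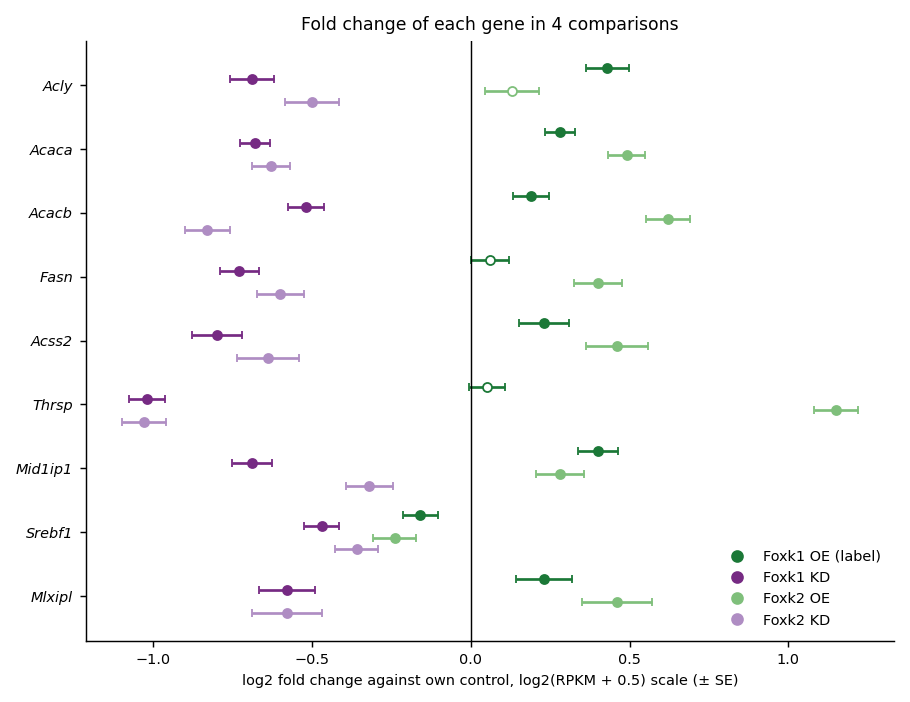
Log2 fold change of each of the 9 genes against its own control on the log2(RPKM + 0.5) scale, with bars for the standard error of the limma fit; filled points have an adjusted p under 0.05 and open points do not. Every gene lies left of 0 in both knockdowns, Srebf1 lies left of 0 in all 4 comparisons, and Thrsp has the largest fold changes of the 9 in both knockdowns and in Foxk2 overexpression.

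The direction of the pathway ran against that of fibroblast and preadipocyte markers in the same libraries. In both knockdowns all 12 tested markers rose, by a median of 0.71 with Foxk1 and 1.35 with Foxk2, and in each overexpression group 11 of 12 fell, by a median of -1.29 in labelled Foxk1 overexpression and -0.96 in Foxk2 overexpression. Of all genes tested, 20.4% rose in Foxk1 knockdown and 18% in Foxk2 knockdown. The share of all genes that fell was 23.8% in labelled Foxk1 overexpression and 22.0% in Foxk2 overexpression. Summed over 13 listed markers, their level was 3120 to 3270 RPKM in Foxk1 knockdown against 1800 to 1950 in its control, and 1800 to 1850 in Foxk2 knockdown against 735 to 736. The sums were 564 to 590 RPKM in labelled Foxk1 overexpression against 1100 to 1300, and 558 to 572 in Foxk2 overexpression against 1110 to 1140. Cd34 was at 0 to 0.197 RPKM, and the other markers were above 0 in all 20 libraries. Dcn, a matrix proteoglycan, spanned 15.5 to 636 RPKM over the 20 libraries. In bulk RNA, fewer cells of a type and less RNA per cell cannot be told apart, and the part of such a shift in the lipogenesis results was not tested.

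Adipocyte markers did not follow the pathway in every comparison. Of 15, 10 fell and none rose in Foxk1 knockdown, and 6 fell and 2 rose (Cd36, a fatty acid carrier, at 0.17, and Lipe, the hormone-sensitive lipase, at 0.21) in Foxk2 knockdown, although Cd36 was at -0.084 under quantile normalization. Yet 9 fell and 3 rose in labelled Foxk1 overexpression, and 9 fell and 4 rose in Foxk2 overexpression, the groups in which most lipogenesis genes rose. Among all genes tested, 15.5% fell and 20.4% rose in Foxk1 knockdown, and 15.7% fell and 18% rose in Foxk2 knockdown. In labelled Foxk1 overexpression 23.8% of all genes fell and 24.1% rose, and in Foxk2 overexpression 22.0% fell and 23.0% rose. Adipoq, the hormone adiponectin, fell by 1.32 and 1.29 on the log2 scale in these overexpression groups, and Slc2a4, the insulin-sensitive glucose transporter, rose by 0.53 and 0.60 in them and fell by 0.83 and 0.91 in the knockdowns of Foxk1 and Foxk2. Summed adipocyte markers were lower than control in each comparison, for example 9970 to 10000 RPKM in Foxk2 overexpression against 14600 to 14700. Macrophage markers were low, with sums of 3.75 to 8.03 RPKM, and the defining markers Adgre1, Itgam and Ptprc were at 0 in 16, 19 and 18 of the 20 libraries. Of the 8 listed, 4 passed the filter, and Cd68 (0.698 to 3.42 RPKM) and Cd14 (1.13 to 5.20 RPKM) were above 0 in all 20 libraries. Cd14, a lipopolysaccharide co-receptor, moved against the pathway, with fold changes of -1.08 in labelled Foxk1 overexpression, 1.02 in Foxk1 knockdown, -0.63 in Foxk2 overexpression and 0.84 in Foxk2 knockdown, all passing. Cd68 rose in Foxk2 knockdown (0.69), and Csf1r rose in labelled Foxk1 overexpression (0.25). Their part in the lipogenesis results was not tested.

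Acly (ENSMUSG00000020917.17, chromosome 11, 100476353 to 100528000, minus strand, mm10, as are all positions below) makes acetyl-CoA from citrate and fell in both knockdowns. Its level was 93.9, 102 and 95.6 RPKM in Foxk1 knockdown and 157, 162 and 151 RPKM in the control, a fold change of -0.69 ± 0.069 (adjusted p = 1.44e-06). With Foxk2 knockdown the libraries read 195 and 180 RPKM against 258 and 273 (-0.50 ± 0.085, adjusted p = 0.000267). Every knockdown library lay under every control library. Labelled Foxk1 overexpression gave 171, 174 and 179 RPKM against 120, 147 and 124 (0.43 ± 0.069, adjusted p = 0.000106), the largest rise of the 9 genes there. Foxk2 overexpression, at 200 and 189 RPKM against 164 and 192, overlapped its control and did not pass the test (0.13 ± 0.085, adjusted p = 0.238). That fold change became -0.018 under quantile normalization.

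Acss2 (ENSMUSG00000027605.18, chromosome 2, 155517948 to 155585724, plus strand) activates acetate and fell more than Acly in Foxk1 knockdown by point estimate. It stood at 10.8, 13.0 and 11 RPKM there against 20.8, 20.9 and 19.8 (-0.80 ± 0.08, adjusted p = 1.31e-06). Foxk2 knockdown libraries held 13.8 and 13.5 RPKM against 21 and 22.2 (-0.64 ± 0.098, adjusted p = 0.000104), again with no overlap. Foxk2 overexpression raised it from 13.9 and 16.3 to 20.8 and 20.8 RPKM (0.46 ± 0.098, adjusted p = 0.00123). In labelled Foxk1 overexpression, 17.9, 18.1 and 18.2 RPKM stood against 14, 17.7 and 14.5, a rise of 0.23 ± 0.08 (adjusted p = 0.0247). That call was lost without control replicate 1 (adjusted p = 0.123), control replicate 3 (0.0931), overexpression replicate 2 (0.0578) or replicate 3 (0.0581), with no filter on low values (0.0516), and in a model of the 2 groups alone (0.106) or of the Foxk1 libraries alone (0.0571). Exons of the opposite-strand genes Acss2os, Ggt7 and Gss cover 9.12% of the Acss2 exon bases. Acss2os and Ggt7 differed between the sets. Acss2os had 172 to 405 reads in each Foxk1 library and 0 to 5 in each Foxk2 library. For Ggt7 these were 389 to 765 and 39 to 194. Gss had 470 to 1230 reads over the 20 libraries. Whether libraries or counting kept strand is not given in the sources used here, so reads of Acss2 and of these genes cannot be told apart and its level across the sets is uncertain.

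Acetyl-CoA carboxylase transcripts fell together in the knockdowns, Acaca (ENSMUSG00000020532.18, chromosome 11, 84129672 to 84401651, plus strand) at the higher level. It had 11.6, 12.2 and 12.4 RPKM in Foxk1 knockdown against 19.6, 19.9 and 19.3 in the control (-0.68 ± 0.048, adjusted p = 4.02e-08). Foxk2 knockdown gave 26.4 and 26.4 RPKM against 40.1 and 42.1 (-0.63 ± 0.059, adjusted p = 8.37e-07). Each fall far exceeded the spread between libraries. Foxk2 overexpression raised Acaca from 26.6 and 29.0 to 39.0 and 39.3 RPKM (0.49 ± 0.059, adjusted p = 6.29e-06). Labelled Foxk1 overexpression raised it from 24.7, 27.6 and 24.2 to 32.5, 29.6 and 31.2 RPKM (0.28 ± 0.048, adjusted p = 0.00017). No overexpression library overlapped its control. A processed pseudogene, Gm5182, matches 64.3% of the longest Acaca transcript at 99% identity or more, so reads may have been split between them, and Gm5182 was not analysed here.

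Acacb (ENSMUSG00000042010.16, chromosome 5, 114146535 to 114250761, plus strand), whose product at the mitochondrion makes the malonyl-CoA that restrains fatty acid oxidation, was measured at 2.15 to 9.49 RPKM. Foxk1 knockdown libraries had 2.15, 2.15 and 2.44 RPKM against 3.70, 3.53 and 3.11 (-0.52 ± 0.057, adjusted p = 3.6e-06). In Foxk2 knockdown it fell from 7.39 and 7.53 to 4.02 and 3.93 RPKM (-0.83 ± 0.07, adjusted p = 2.56e-07). Foxk2 overexpression gave the highest Acacb of any group, 9.49 and 9.49 RPKM against 5.92 and 6.05 (0.62 ± 0.07, adjusted p = 2.74e-06). Labelled Foxk1 overexpression gave 6.64, 6.96 and 6.33 RPKM against 5.50, 6.06 and 5.69 (0.19 ± 0.057, adjusted p = 0.011), a call lost without control replicate 1 (adjusted p = 0.0506) or overexpression replicate 2 (0.053). Acacb moved less with Foxk1 than with Foxk2 in both directions. The effect of labelled Foxk1 overexpression minus that of Foxk2 overexpression was -0.43 ± 0.091 (adjusted p = 0.00287), and the effect of Foxk1 knockdown minus that of Foxk2 knockdown was 0.31 ± 0.091 (adjusted p = 0.0323), the latter lost under 10 of 21 alternatives, among them without Foxk1 knockdown replicate 3, without replicate 3 of its control, and without any 1 of the 4 Foxk2 knockdown and control libraries. Of the summed RPKM of both carboxylases, Acacb made up 13.1 ± 0.17% in Foxk2 knockdown against 15.4 ± 0.277% in its control and 19.5 ± 0.111% in Foxk2 overexpression against 17.7 ± 0.642% (SD, n = 2 and 2 each; two-sided exact permutation p = 0.333 each, the smallest that 2 against 2 allows). With Foxk1 the share was 15.7 ± 0.742% in knockdown against 14.9 ± 1.00% (exact permutation p = 0.5) and 17.6 ± 1.23% in labelled overexpression against 18.4 ± 0.567% (exact permutation p = 0.3, SD, n = 3 and 3 each, smallest possible 0.1). The merged Acaca length exceeds its longest transcript, and Acaca reads may have been split with Gm5182, so the level of these shares is uncertain.

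Fasn (ENSMUSG00000025153.9, chromosome 11, 120805846 to 120824547, minus strand) encodes the synthase itself and took up 0.244 to 0.896% of all assigned reads in a library. Foxk1 knockdown libraries had 223, 234 and 242 RPKM against 411, 383 and 364 (-0.73 ± 0.061, adjusted p = 2.1e-07). Foxk2 knockdown libraries had 527 and 475 RPKM against 744 and 775 (-0.60 ± 0.075, adjusted p = 1.44e-05). The knockdown and control libraries stood apart in both. Foxk2 overexpression, at 819 and 751 RPKM against 563 and 626, was higher (0.40 ± 0.075, adjusted p = 0.000372), although the call was lost in a model of these 2 groups alone (adjusted p = 0.0684). Labelled Foxk1 overexpression, at 515, 519 and 521 RPKM, lay inside the range of its control, at 466, 533 and 498, and did not pass (0.06 ± 0.061, adjusted p = 0.48; under quantile normalization -0.137, adjusted p = 0.0368). The overexpression effects differed by -0.34 ± 0.096 (labelled Foxk1 minus Foxk2, adjusted p = 0.0164), a call lost with the replicate number as a block (0.06), without Foxk2 overexpression control replicate 1 (0.0882) and without Foxk2 overexpression replicate 1 (0.081).

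Thrsp (ENSMUSG00000035686.8, chromosome 7, 97412938 to 97417730, minus strand), a lipogenic protein of the nucleus and cytosol also known as Spot 14, ranged over 7.47 fold between its lowest and highest library, the widest of the 9. Foxk1 knockdown libraries had 110, 120 and 104 RPKM against 220, 230 and 232 (-1.02 ± 0.056, adjusted p = 2.56e-09). Foxk2 knockdown gave 336 and 304 RPKM against 643 and 663 (-1.03 ± 0.068, adjusted p = 2.08e-08). The knockdown effects differed by 0.00 ± 0.088 (adjusted p = 0.988). Foxk2 overexpression had 780 and 779 RPKM against 335 and 365 (1.15 ± 0.068, adjusted p = 2.63e-09), and labelled Foxk1 overexpression had 535, 551 and 542 RPKM against 498, 564 and 514 (0.05 ± 0.056, adjusted p = 0.517; under quantile normalization -0.16, adjusted p = 0.0168). The difference of -1.11 ± 0.088 (adjusted p = 6.21e-07) was the largest of the 9 genes and was called under all 21 alternatives run.

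Mid1ip1 (ENSMUSG00000008035.12, chromosome X, 10715013 to 10719690, plus strand), the relative of Thrsp, fell from 103, 96.3 and 95.4 to 64.6, 59.1 and 58.2 RPKM in Foxk1 knockdown (-0.69 ± 0.062, adjusted p = 3.8e-07). Foxk2 knockdown lowered it from 69.7 and 68.6 to 57.2 and 53.5 RPKM (-0.32 ± 0.075, adjusted p = 0.00376). In labelled Foxk1 overexpression it rose from 99.2, 106 and 115 to 129, 151 and 144 RPKM (0.40 ± 0.062, adjusted p = 6.3e-05). All these groups stood apart from their controls. Foxk2 overexpression gave 75.0 and 72.2 RPKM against 59.7 and 61.0 (0.28 ± 0.075, adjusted p = 0.00586). Unlike Thrsp, Mid1ip1 did not pass the test of the difference between overexpression effects (0.12 ± 0.097, adjusted p = 0.426). The knockdown effects differed by -0.37 ± 0.097 (Foxk1 minus Foxk2, adjusted p = 0.0178), which was lost without Foxk2 knockdown control replicate 2 (0.0709) or Foxk2 knockdown replicate 1 (0.0906). An antisense gene, Gm14493, shares 25.5% of the exon bases of Mid1ip1. It was counted at 959 to 3139 reads in each Foxk1 library, 41.9 to 50.7% of the Mid1ip1 reads there, and at 0 in every one of the 8 Foxk2 libraries. Its part in the difference of Mid1ip1 between the sets was not tested.

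**Figure D2:**
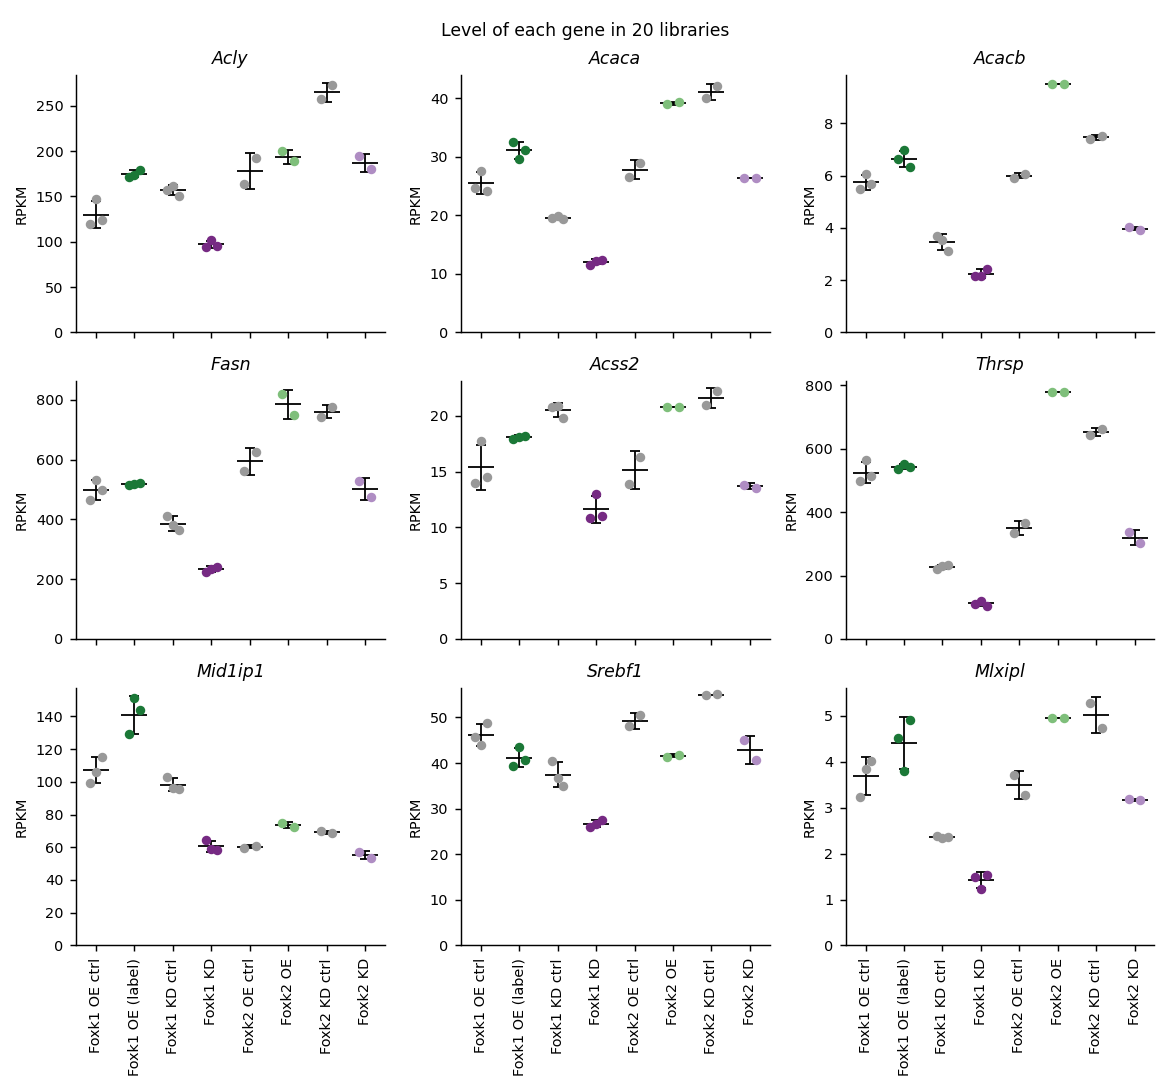
RPKM of the 9 genes in each of 20 libraries (points), with the mean and SD of each group (bars; n = 3 in Foxk1 groups and n = 2 in Foxk2 groups); OE is overexpression, KD knockdown and ctrl the group's own control. Each knockdown lies under its control, and the Foxk1 knockdown group is the lowest of the 8 for every gene but Mid1ip1.

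Srebf1 (ENSMUSG00000020538.15, chromosome 11, 60199089 to 60222581, minus strand) encodes the insulin-responsive activator of this pathway and had a lower mean than its control in all 4 comparisons. Foxk1 knockdown took it from 40.4, 36.8 and 34.9 to 26.0, 26.6 and 27.6 RPKM (-0.47 ± 0.055, adjusted p = 6.57e-06). Foxk2 knockdown took it from 55.0 and 55.1 to 45.0 and 40.6 RPKM (-0.36 ± 0.067, adjusted p = 0.000613). Both falls cleared the spread between libraries. Foxk2 overexpression had 41.4 and 41.8 RPKM against 48.1 and 50.6 (-0.24 ± 0.067, adjusted p = 0.00823), lost with the trend on length and GC content removed (-0.001, adjusted p = 0.987) and without its control replicate 2 (-0.206, adjusted p = 0.0706). Labelled Foxk1 overexpression had 39.4, 43.6 and 40.6 RPKM against 45.6, 43.9 and 48.7 (-0.16 ± 0.055, adjusted p = 0.0258). That call was lost under 7 alternatives, among them without control replicate 3 (0.118), overexpression replicate 1 (0.104) or replicate 3 (0.0721). It was the only 1 of the 9 genes with a lower mean RPKM than control in the overexpression groups, where quantile normalization also placed Fasn and Thrsp lower in labelled Foxk1 overexpression and Acly at -0.018 in Foxk2 overexpression. Within the Foxk2 libraries its overexpression effect minus its knockdown effect was 0.12 ± 0.095 (adjusted p = 0.343), while the other 8 genes all passed in the positive direction, against 48.2% of all genes, 23.9% positive and 24.4% negative; with the length and GC trend removed Srebf1 passed too (0.55, adjusted p = 4.75e-07). For Foxk1 all 9 passed the test of that difference, against 49.6% of all genes, 23.8% positive and 25.7% negative, Srebf1 at 0.31 ± 0.078 (adjusted p = 0.00332).

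Mlxipl (ENSMUSG00000005373.13, chromosome 5, 135089890 to 135138382, plus strand), encoding the glucose-responsive factor ChREBP, was the least expressed, at 1.23 to 5.28 RPKM and 114 to 999 reads. It fell from 2.39, 2.34 and 2.35 to 1.49, 1.23 and 1.54 RPKM in Foxk1 knockdown (-0.58 ± 0.089, adjusted p = 0.000107). In Foxk2 knockdown it fell from 5.28 and 4.73 to 3.18 and 3.16 RPKM (-0.58 ± 0.11, adjusted p = 0.000624), and in Foxk2 overexpression it rose from 3.70 and 3.27 to 4.96 and 4.96 RPKM (0.46 ± 0.11, adjusted p = 0.0029). Mlxipl thus followed the enzymes in these 3 comparisons. In labelled Foxk1 overexpression, 4.52, 3.80 and 4.91 RPKM overlapped 3.23, 3.85 and 4.01 (0.23 ± 0.089, adjusted p = 0.0487). That call was lost under 9 of 19 alternatives, among them without control replicate 1 (0.229), control replicate 2 (0.0559), overexpression replicate 1 (0.122) or replicate 3 (0.212).

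Control groups of the same set were not alike, which bears on what a rise or a fall starts from. In the Foxk2 libraries the empty vector control lay below the scrambled shRNA control for all 9 genes, with ranges apart for 9. Thrsp stood at 350 RPKM in the former and 653 in the latter, a ratio of 0.537, so that Foxk2 overexpression (779) ended above the scrambled control while Foxk2 knockdown (320) overlapped the empty vector control. In the Foxk1 libraries the order was turned for 7 genes, Thrsp at 525 RPKM with empty vector and 227 with scrambled shRNA, a ratio of 2.31. Acly (0.832) and Acss2 (0.749) were lower with empty vector there too, and ranges were apart for 8 genes, all but Mid1ip1. These are levels without a test, and the share of all genes with ranges apart between control groups was not counted. Between treatment and control it was 67.2% and 70.3% in the Foxk2 comparisons and 44.2% and 52.3% in the Foxk1 comparisons. The counts of ranges apart are therefore not a result about these genes.

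The order of levels over the 8 groups differed by gene. Fasn was highest in Foxk2 overexpression (785 RPKM) and the scrambled control of Foxk2 (760), whose ranges overlapped, then came the Foxk2 empty vector control (594), and labelled Foxk1 overexpression (518), Foxk2 knockdown (501) and the Foxk1 empty vector control (499) overlapped in turn. The scrambled control of Foxk1 (386) and Foxk1 knockdown (233) followed, each apart from the group above it. Mid1ip1 was highest in labelled Foxk1 overexpression (141 RPKM) and lowest in Foxk2 knockdown (55.4). Its antisense gene Gm14493 was counted in the Foxk1 libraries alone, and the part of that in this order was not tested. For Srebf1, 6 groups from the Foxk2 empty vector control (49.3 RPKM) to the scrambled control of Foxk1 (37.4) formed a chain of overlapping neighbours, with the scrambled control of Foxk2 (55.0) above it and Foxk1 knockdown (26.7) below.

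Start regions of these genes are shown because the genes fell together in both knockdowns, and the chosen 4 cover an acetyl-CoA-making enzyme, the synthase and both transcription factors. They are the 250 bases before a RefSeq start in GRCm38.p6, written 5′ to 3′ on the gene's strand. Capitals mark a CCAAT box (CCAAT, or ATTGG where it lies on the other strand), a GC box (GGGCGG or CCGCCC) or an E-box (CACGTG).
Acly, chr11:100528001-100528250, minus strand: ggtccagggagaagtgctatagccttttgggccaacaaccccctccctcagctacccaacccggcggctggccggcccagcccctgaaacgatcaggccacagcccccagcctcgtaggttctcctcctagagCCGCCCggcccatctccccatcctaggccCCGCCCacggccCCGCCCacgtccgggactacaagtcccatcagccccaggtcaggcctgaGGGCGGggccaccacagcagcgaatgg
Fasn, chr11:120824548-120824797, minus strand: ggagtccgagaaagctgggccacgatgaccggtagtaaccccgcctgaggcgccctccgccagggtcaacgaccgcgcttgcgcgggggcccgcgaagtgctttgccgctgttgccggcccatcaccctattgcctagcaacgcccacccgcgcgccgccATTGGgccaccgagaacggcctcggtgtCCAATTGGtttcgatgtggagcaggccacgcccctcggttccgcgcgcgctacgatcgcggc
Srebf1, chr11:60210472-60210721, minus strand: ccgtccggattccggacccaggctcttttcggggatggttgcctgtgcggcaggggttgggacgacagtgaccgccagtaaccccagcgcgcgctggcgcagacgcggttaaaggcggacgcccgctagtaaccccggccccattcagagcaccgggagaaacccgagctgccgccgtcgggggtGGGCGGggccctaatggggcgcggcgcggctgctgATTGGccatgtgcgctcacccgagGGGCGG
Mlxipl, chr5:135089640-135089889, plus strand: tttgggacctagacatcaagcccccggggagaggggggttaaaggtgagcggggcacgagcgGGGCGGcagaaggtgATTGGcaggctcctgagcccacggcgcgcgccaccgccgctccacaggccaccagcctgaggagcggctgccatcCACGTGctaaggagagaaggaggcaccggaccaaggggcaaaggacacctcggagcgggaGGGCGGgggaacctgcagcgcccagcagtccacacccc

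Positions count from the RefSeq start, with -1 the last base before it. Fasn has CCAAT on the minus strand at -90 to -86, on the plus strand at -62 to -58 and on the minus strand at -59 to -55, the latter pair sharing letters. The Srebf1 region shown, 1 of 3 RefSeq starts of the gene, has GC boxes at -65 to -60 and -6 to -1 and a CCAAT box between them at -30 to -26. Mlxipl, in 1 of its 2 starts, has the only E-box among the 9 genes, at -98 to -93, along with a CCAAT box at -173 to -169 and GC boxes at -188 to -183 and -38 to -33. Acly has 4 GC boxes before its start.

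Over whole windows of 300 bases, from 250 before a start to 50 after it, all 9 genes had an entry, 12 windows in all. CCAAT was found on either strand in 8 of the 12 windows (7 of the 9 genes) and in 37.4% of 32851 RefSeq windows. The GC box was found in 6 of the 12 windows (5 genes) and in 35.7% of all windows, and the E-box in 1 of 12 and in 7.15%. The classical sterol response element of the LDL receptor gene, with 1 free base, was in none, against 0.234% of windows, and the forkhead motif TGTTTAC was in none, against 3.65%. A match is a run of letters and not a bound site. Windows of Acaca, Acacb and Mid1ip1, 1 of the 2 of Mlxipl (not the one shown) and 2 of the 3 of Srebf1 (with the one shown) lie inside the gene as GENCODE draws it, and of the 250 bases before the RefSeq start, 180 for Thrsp, 128 for Mid1ip1, 95 for Acss2 and 9 for Acacb are annotated there as exon, so these windows need not be the starts used in these cells.

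**Figure D3:**
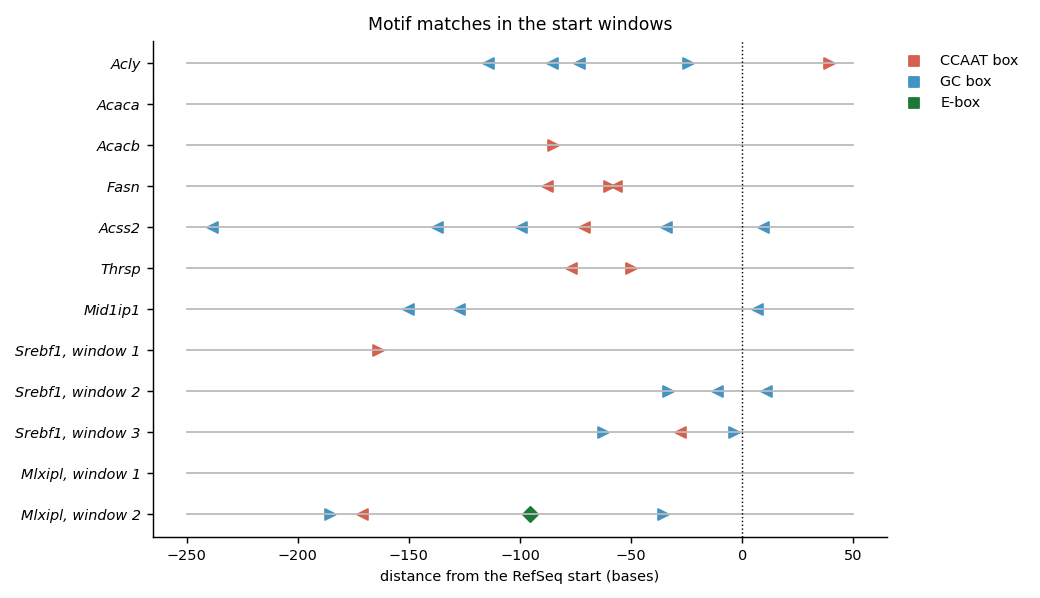
Motif matches in the 12 RefSeq start windows of the 9 genes, by distance from the start in bases (0 is the start, dotted); triangles point along the strand of the match and a diamond marks the E-box. CCAAT boxes lie at -90 to -26 in Acss2, Acacb, Fasn, Thrsp and the third Srebf1 window. Others lie at -166 to -162 in the first Srebf1 window, at -173 to -169 in the second Mlxipl window and at 37 to 41 in Acly.

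Citrate export and NADPH supply, the steps that feed the pathway, moved with it. Of 9 listed genes, all 9 fell in Foxk1 knockdown (median -0.50) and 7 fell in Foxk2 knockdown (median -0.49), with Idh1 (-0.06) and Pgls (0.05) not passing. Among all genes tested, 15.5% and 15.7% fell in these knockdowns. In labelled Foxk1 overexpression 7 rose and Idh1, the cytosolic isocitrate dehydrogenase, fell (-0.16), with a median of 0.24. In Foxk2 overexpression 6 rose while Idh1 (-0.17) and Pc, pyruvate carboxylase (-0.17), fell, with a median of 0.44, Pc moving to 0.023 with the length and GC trend removed. Over all genes, 24.1% rose and 23.8% fell in labelled Foxk1 overexpression, and 23.0% and 22.0% in Foxk2 overexpression. Slc25a1, the citrate carrier of the mitochondrial membrane, had fold changes of 0.24 in labelled Foxk1 overexpression, -0.72 in Foxk1 knockdown, 0.73 in Foxk2 overexpression and -0.49 in Foxk2 knockdown. For Me1, the malic enzyme that makes NADPH, these were 0.49, -0.61, 0.86 and -0.92, and for the pentose phosphate enzyme Tkt they were 0.87, -0.75, 1.29 and -0.81, each of them passing the test.

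Enzymes that lengthen and desaturate the product fell in the knockdowns and split in the overexpression groups. Of 10, 8 fell in each knockdown, with medians of -0.33 for Foxk1 and -0.50 for Foxk2, and Hacd3, a dehydratase of elongation, rose in Foxk1 knockdown (0.23). In labelled Foxk1 overexpression 4 rose and 3 fell (Scd1, Fads1 and Hacd3), and in Foxk2 overexpression 5 rose and 3 fell (Elovl1, Fads1 and Fads2). Over all genes, 15.5% fell in Foxk1 knockdown and 15.7% in Foxk2 knockdown. Labelled Foxk1 overexpression had 24.1% of all genes higher and 23.8% lower, and Foxk2 overexpression 23.0% and 22.0%. Elovl6, which lengthens palmitate, rose by 1.48 and 2.15 on the log2 scale in the labelled Foxk1 and the Foxk2 overexpression groups, larger fold changes than those of any of the 9 lipogenesis genes. Scd1, the main stearoyl-CoA desaturase of fat cells, fell by 0.83 in Foxk1 knockdown, by 1.00 in Foxk2 knockdown and by 0.39 in labelled Foxk1 overexpression, and was at -0.16 in Foxk2 overexpression without passing. Its relative Scd2 had fold changes of 0.54, -0.83, 0.30 and -0.55 in labelled Foxk1 overexpression, Foxk1 knockdown, Foxk2 overexpression and Foxk2 knockdown, all passing.

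**Figure D4:**
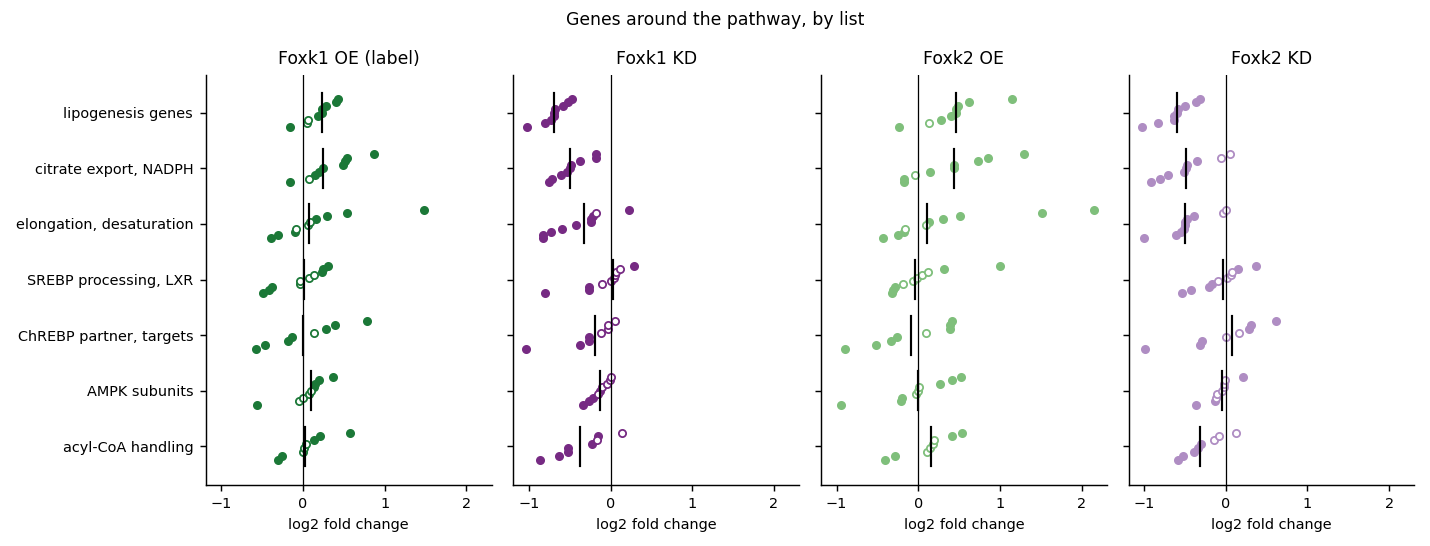
Log2 fold change of each tested gene in 7 lists, by comparison; filled points have an adjusted p under 0.05, open points do not, and the black bar is the list's median. In both knockdowns all points of the lipogenesis list and all but 2 of the citrate export and NADPH list are filled and left of 0, while the lists of upstream regulators lie on both sides of 0.

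Regulators upstream of SREBP-1 did not move as a group. Of 10 genes for SREBP processing and the LXR input, 3 rose and 3 fell in labelled Foxk1 overexpression. In Foxk1 knockdown 1 rose and 3 fell. In Foxk2 overexpression 2 rose and 3 fell, and in Foxk2 knockdown 2 rose and 4 fell. In the same order, 47.8%, 35.9%, 45.0% and 33.7% of all genes tested passed. The shares of all genes that fell were 23.8%, 15.5%, 22.0% and 15.7%. Insig1, which holds the SREBP complex in the endoplasmic reticulum and is itself an SREBP target, fell in all 4 comparisons, by 0.41, 0.80, 0.31 and 0.43 on the log2 scale in that order. The mean of Srebf1 had the same sign in these comparisons. Mbtps1, the site-1 protease that cleaves SREBP, fell in the overexpression groups (-0.49 with labelled Foxk1, -0.32 with Foxk2) and rose in the knockdowns (0.29 and 0.15). Insig2 rose in labelled Foxk1 overexpression (0.31) and Foxk2 overexpression (1.00) and fell in Foxk2 knockdown (-0.54).

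Around ChREBP, its binding partner Mlx moved with Mlxipl, with fold changes of 0.39, -0.26, 0.39 and -0.29 in labelled Foxk1 overexpression, Foxk1 knockdown, Foxk2 overexpression and Foxk2 knockdown, all passing. The glucose-responsive targets did not share 1 direction. Of the 8 tested genes of this list, 3 rose and 4 fell in each overexpression group. In Foxk1 knockdown 4 fell and none rose, and in Foxk2 knockdown 3 rose and 3 fell. Among all genes, 47.8% passed in labelled Foxk1 overexpression and 45.0% in Foxk2 overexpression, with 23.8% and 22.0% lower. In the knockdowns of Foxk1 and Foxk2, 35.9% and 33.7% of all genes passed, with 15.5% and 15.7% lower. Txnip, the thioredoxin-binding inhibitor of glucose uptake, fell in labelled Foxk1 overexpression (-0.47) and in Foxk2 overexpression (-0.90) and rose in Foxk2 knockdown (0.61). Pnpla3, a lipid droplet acylhydrolase driven by both SREBP-1 and ChREBP, fell by 1.03 and 0.99 in the knockdowns and by 0.57 in labelled Foxk1 overexpression, and rose by 0.41 in Foxk2 overexpression. Pklr was below the filter.

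AMPK is the kinase that phosphorylates and inactivates both carboxylases. Of 9 genes for its subunits, the LKB1 complex and malonyl-CoA decarboxylase, 4 rose and 1 fell in labelled Foxk1 overexpression, 4 fell in Foxk1 knockdown, 3 rose and 3 fell in Foxk2 overexpression, and 1 rose and 2 fell in Foxk2 knockdown. These 5, 4, 6 and 3 of 9 stand beside the 47.8%, 35.9%, 45.0% and 33.7% of all genes that passed in the same comparisons, near the background. Prkab2 fell by 0.56 and 0.95 in the labelled Foxk1 and the Foxk2 overexpression groups, and Prkaa1 rose by 0.37 and 0.41. Among 8 tested genes that handle acyl-CoA, 6 fell in Foxk1 knockdown and 5 in Foxk2 knockdown, and none rose in either. The shares of all genes that fell in these knockdowns were 15.5% and 15.7%. Labelled Foxk1 overexpression had 3 of the 8 higher and 2 lower, and Foxk2 overexpression 2 and 2. There 24.1% of all genes were higher and 23.8% lower with labelled Foxk1, and 23.0% and 22.0% with Foxk2. Acsl3, a long-chain acyl-CoA synthetase, had fold changes of 0.21, -0.63, 0.41 and -0.39 in labelled Foxk1 overexpression, Foxk1 knockdown, Foxk2 overexpression and Foxk2 knockdown.

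Tests of the difference between the factors passed for 3 of the 9 genes in overexpression and for 2 in knockdown. Of the overexpression effects, 3 were lower with Foxk1 by its label than with Foxk2 (Acacb, Fasn and Thrsp) and none was higher, against 25.1% of all genes, 13.5% lower and 11.6% higher. Of the knockdown effects, Acacb was higher and Mid1ip1 lower with Foxk1, 2 of 9 genes, against 14.3% of all genes, 6.68% higher and 7.63% lower. The remaining differences in overexpression ran from -0.23 ± 0.14 for Mlxipl to 0.30 ± 0.11 for Acly (adjusted p = 0.0617), which does not show that these genes responded alike. Acaca had a difference of -0.20 ± 0.077 between overexpression effects (adjusted p = 0.0664). The call of Fasn was lost without the empty vector control replicate 1 of Foxk2 (adjusted p = 0.0882) or Foxk2 overexpression replicate 1 (0.081), that of Mid1ip1 without the scrambled control replicate 2 of Foxk2 (0.0709) or Foxk2 knockdown replicate 1 (0.0906), and that of the Acacb knockdown difference without any 1 of the 4 Foxk2 knockdown and control libraries. Conversely, Acly passed without the empty vector control replicate 2 of Foxk1 (0.384, adjusted p = 0.00654) or replicate 1 of Foxk2 (0.409, adjusted p = 0.0201), and Acaca without the empty vector control replicate 3 of Foxk1 (adjusted p = 0.033) or replicate 2 of Foxk2 (0.0441) or labelled Foxk1 overexpression replicate 1 (0.0425). Over all genes, 2287 had knockdown effects that differed, and 1328 without the scrambled control replicate 2 of Foxk2 or 1388 without Foxk2 knockdown replicate 1. Genes higher with labelled Foxk1 than with Foxk2 overexpression went from 1860 to 1237 without the empty vector control replicate 2 of Foxk2.

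How alike the genes were across libraries was described by Pearson's r over the 20 libraries, each taken as log2 minus the mean of its own control. Libraries of a comparison share a control mean, so r is a description. Among the 9 genes r was highest for Acaca and Acss2 (0.985) and lowest for Thrsp and Srebf1 (0.516). Srebf1 had an r of 0.516 to 0.692 with the other 8, and no other pair was below 0.773. Of 9196 other genes searched, Thrsp was most like Agpat2 (0.994), an acyltransferase of triglyceride synthesis, and Aldh1l1 (0.992), a folate enzyme. Acly was most like Scd2 (0.988) and Fdft1 (0.984), the squalene synthase of sterol synthesis. Acaca was most like Gbe1 (0.994), the glycogen branching enzyme, and Cyb5b (0.991), and Acss2 like Gbe1 (0.985) and Ptpa (0.981). Acacb was most like Alas1 (0.983), the first enzyme of heme synthesis, and Cmbl (0.983). For Fasn the nearest were Gpt (0.990), alanine aminotransferase, and Ptpa (0.979), and for Mid1ip1 they were Mcrip2 (0.985) and Grhpr (0.982). Mlxipl was nearest to Narf (0.965) and Arl15 (0.963), and Srebf1 to Aldh3b2 (0.951) and Fam83a (0.947), the lowest values of the 9.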

How the data were processed

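The authors deposited 1 table of RPKM values for 48440 genes in 20 libraries of total RNA. The submitters' processing notes name HISAT2 2.1.0, Picard 1.141, featureCounts (Subread 1.5.1), edgeR and the mm10 build. Strand is not given in the sources used here. GENCODE M21 gave symbols and positions (48058 identifiers matched without version, 40606 with it). RPKM times merged exon length gave whole reads, within 0.1 read, for 100% of values above 0 of identifiers matching with their version, from which depth was taken.

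Tests covered 15981 genes, those at 0.5 RPKM or above in 2 or more libraries, on log2(RPKM + 0.5), which understates changes of low genes, in limma 3.58.1 (R 4.3.3) with 8 group means, a prior variance that follows the mean level, and 12 residual degrees of freedom. Tests are two-sided, with p-values adjusted over all genes tested. Effects of the factors were compared as contrasts of contrasts. p-values reflect only how these libraries vary, and that spread may be technical. No 2 libraries agreed within sampling noise. The code was tested on simulated data.

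The 9 genes, the 9 other gene lists and the tests were chosen with earlier results of these data known. Besides the 9 genes, the text names, per list and comparison, up to 3 genes of smallest adjusted p and members of the minority direction, and for each of the 9 genes the 2 most like it among genes at a mean of 2 RPKM or more; other list genes named were chosen after their values were seen. Alternatives were filters, pseudocounts, scalings, smaller models, a robust prior, voom on recovered reads, a length and GC trend, a replicate block and each library left out. Near-identical copies were searched with BLAST+ 2.17.0 at 99% identity over 100 bases. Start windows are from RefSeq (GRCm38.p6). Python 3.11.15, pandas 2.3.3 and matplotlib 3.10.9 were used.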

Additional observations from a re-analysis of the deposited data

Results flagged for a closer look

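By the test of the difference itself, the effects of Foxk1 and Foxk2 differed for 3 of 9 genes in overexpression and 2 in knockdown. Over all genes tested 25.1% and 14.3% differed, so these counts are near the background. Between overexpression effects (labelled Foxk1 minus Foxk2) Thrsp differed by -1.11 ± 0.088 (limma adjusted p = 6.21e-07), Acacb by -0.43 ± 0.091 (adjusted p = 0.00287) and Fasn by -0.34 ± 0.096 (adjusted p = 0.0164). All 3 were higher with Foxk2, and Thrsp and Fasn did not pass in labelled Foxk1 overexpression, where Foxk1 mRNA was lower than in its control. Between knockdown effects (Foxk1 minus Foxk2) Acacb differed by 0.31 ± 0.091 (adjusted p = 0.0323) and Mid1ip1 by -0.37 ± 0.097 (adjusted p = 0.0178), the latter beside an antisense gene that was counted in the Foxk1 libraries alone. The Acacb knockdown difference was lost under 10 of 21 alternatives, among them the replicate block (adjusted p = 0.0921) and each Foxk2 knockdown or control library left out. The Fasn difference was lost under 3 (block 0.06; without replicate 1 of Foxk2 overexpression 0.081 or of its control 0.0882), and the Mid1ip1 difference under 2 (without Foxk2 knockdown replicate 1, 0.0906, or its control replicate 2, 0.0709). Each sets Foxk1 libraries against Foxk2 libraries, which are deeper and have fewer replicates. The sets also differ in the reads counted for the opposite-strand genes Gm14493, Acss2os and Ggt7. The part of each was not tested.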

How the results depend on the processing

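Of the 36 fold changes of the 9 genes, 27 kept direction and call under every alternative run (19 per Foxk1 comparison, 17 per Foxk2 comparison), including all 18 of the knockdowns. In labelled Foxk1 overexpression, called genes went from 7 to 4 with no filter on low values, in a model of the 2 groups alone and in a model of the Foxk1 libraries alone. Lower calls there went from 1 to 0 under these and the replicate block and to 3 under quantile normalization, and with each library left out the counts were 4 to 6 called, 3 to 5 higher and 0 to 1 lower. The lower call of Foxk2 overexpression (1) went to 0 with the length and GC trend removed and ranged from 0 to 1 with libraries left out. Differences between overexpression effects rose from 3 to 5 with voom, and differences in the higher direction from 0 to 1 with voom, quantile normalization and a filter at 20 reads, and 0 to 1 with libraries left out. Differences between knockdown effects fell from 2 to 1, and those higher from 1 to 0, with no filter, pseudocount 0.1, quantile normalization and the replicate block, with ranges of 0 to 2 and 0 to 1 with libraries left out, and 0 to 1 for those lower.

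Directions turned for values that mostly did not pass. Under quantile normalization Acly in Foxk2 overexpression was -0.018, Fasn and Thrsp in labelled Foxk1 overexpression -0.137 and -0.16 (adjusted p = 0.0368 and 0.0168), and Cd36 in Foxk2 knockdown -0.084. With the length and GC trend removed, Pc in Foxk2 overexpression was 0.023, the knockdown difference 0.066 for Fasn and 0.059 for Srebf1, and the overexpression difference of Srebf1 -0.101. The knockdown difference of Thrsp was -0.001 with median-ratio scaling and -0.069 to 0.077 with libraries left out, and that of Mlxipl -0.059 with pseudocount 0.1, -0.091 with quantile normalization, -0.074 with voom and -0.068 to 0.08 with libraries left out. The cause was not tested. Same-number correlations of deviations from the group means ran from -0.0858 to 0.0331. With 2 libraries in a group, each is only the cross-number value with its sign turned. These values therefore cannot settle whether replicate numbers pair the samples.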
